A study of Homo sapiens with 12 samples.

Results

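The comparison is between the breast cancer lines MDA-MB-231 and T47D, held in a synthetic matrix that carried the laminin mimic IKVAV, on day 3 of culture, and it covers 5 of the 12 samples of the series. Its samples were chosen by their labels and by the presence of a column of counts, which left replicates 1 and 2 of MDA-MB-231 and replicates 1, 2 and 3 of T47D. Replicate 3 of MDA-MB-231, which the authors set aside as an outlier of low mapping, was not analysed here. The remaining 6 libraries with counts came from the same 2 cell lines in the collagen mimic GFOGER, and they are used only to test whether the cell line difference depended on the peptide. MDA-MB-231 is an established line from an adenocarcinoma, of the basal type and without estrogen receptor, and T47D is an established line from a ductal carcinoma, of the luminal A type and with estrogen receptor. Both were isolated from a pleural effusion. All cells were seeded singly at 5000 cells per µL in a poly(ethylene glycol) hydrogel whose crosslinks cells can cut, were fed medium with serum, and were freed on day 3 with collagenase. Each library pooled 3 gels of the same kind, and the labels do not say whether replicates began from separate cultures, so the p-values measure the spread between these libraries, which may be technical. Each cell type is represented by 1 line, so the subtype and everything else in which the lines differ cannot be told apart.

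Breast epithelium is lined by luminal cells, which are held together by E-cadherin junctions and respond to estrogen, progesterone and prolactin, above a basal layer that rests on laminin and collagen IV. In an epithelial-mesenchymal transition, repressors of the ZEB and SNAIL families silence junction genes while cells gain vimentin and matrix-degrading enzymes, and tumour lines are often described by where they sit between these states. IKVAV is taken from the laminin alpha 1 chain and is read by integrins and other laminin receptors. The genes below are ordered by these roles, from cell identity to receptors, matrix, signals and growth.

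Poly(A) RNA was measured as reads counted on each gene by the authors, with 14337035 to 16899810 counts in a library and 16618 to 16851 genes detected. Levels are given in cpm, the counts of a gene relative to the TMM-normalized size of its library, replicate by replicate in numerical order, and a count of 3 came to at most 0.204 cpm, a limit that covers counting error only. Differences are log2 values of MDA-MB-231 relative to T47D from edgeR's quasi-likelihood test, and a gene was called when its Benjamini-Hochberg adjusted p was below 0.05 and its fold change above 2. Within a line the libraries had Spearman correlations across genes of 0.992 to 0.996, and between the lines 0.742 to 0.752. Replicate 3 of T47D stood somewhat apart. On a scale of log2(cpm + 1), 88 genes were more than 2-fold from the mean of the other 2 T47D libraries, against 4 and 10 genes for replicates 1 and 2. The added 1 hides such departures in genes near or below 1 cpm. Without T47D replicate 3 the comparison called 6613 genes. In bulk RNA, fewer cells with a transcript and less of it in each cell cannot be told apart.

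The lines differed over a large part of the transcriptome. Of 14863 genes tested, 6755 (45.4%) were called, 3487 (23.5%) higher and 3268 (22.0%) lower in MDA-MB-231, and the larger of these shares changes place under upper-quartile normalization. A difference over 16-fold was found in 1964 genes (13.2%), with 1126 (7.58%) higher and 838 (5.64%) lower in MDA-MB-231, and 952 genes differed by more than 100-fold. The 1126 genes took 8.7% and 8.71% of all counts in the MDA-MB-231 libraries and 0.157% to 0.181% in the T47D libraries. The 838 genes took 6.07% to 6.32% of the counts in T47D and 0.0824% and 0.0892% in MDA-MB-231, small shares that follow from how the genes were chosen. Among the genes tested, 229 had no count in either MDA-MB-231 library and 195 had none in any T47D library. At the same time, for 5581 genes (37.5%) the 95% interval of the difference lay within 2-fold in both directions, and the median over all genes tested was -0.013. For 12532 genes (84.3%) the libraries of the lines did not overlap, a share that reflects how close the replicates were and against which the separation of any single gene should be read.

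**Figure D1:**
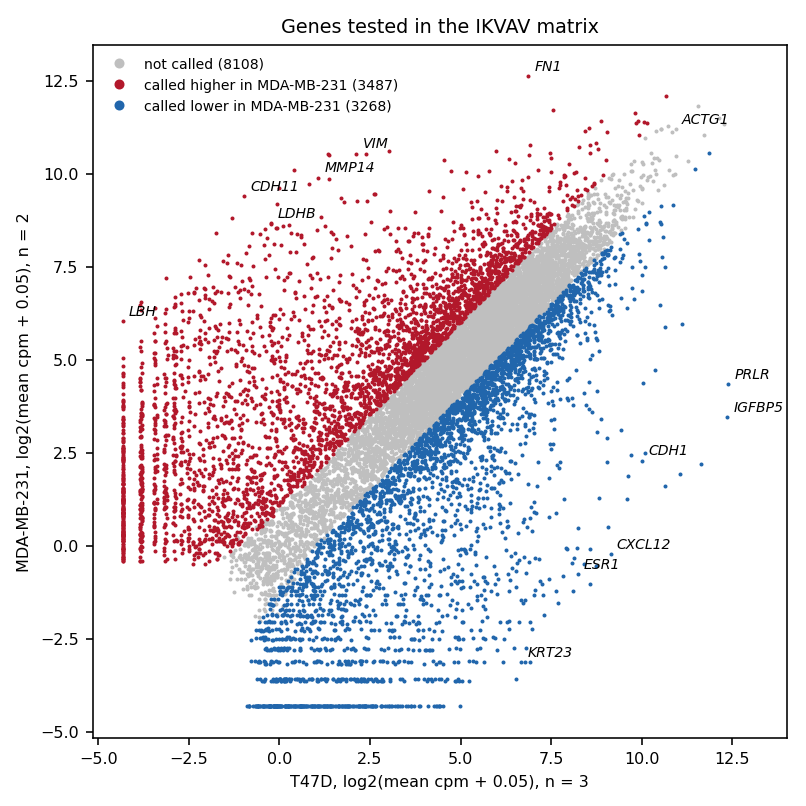
Mean level of each of the 14863 genes tested in T47D (x axis) and MDA-MB-231 (y axis) in the IKVAV matrix, as log2(mean cpm + 0.05), with a point per gene coloured by its call. The 3487 genes called higher and 3268 called lower in MDA-MB-231 lie on both sides of a grey band of genes not called, and the columns and rows of points at the edges are genes with few or no counts in one line.

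The genes with the largest differences were almost all-or-none. Each was plain in the libraries of one line and near 0 in those of the other. By the rule used to name them, which took the 10 largest calls in each direction with at least 50 cpm in the higher line and no overlap of libraries, LBH led in MDA-MB-231. LBH, a transcription cofactor of mammary progenitors (chromosome 2, 30454397 to 30482899 of hg19), was at 61.2 and 69.3 cpm in MDA-MB-231 and had no count in T47D, at least 320.1-fold higher when 3 counts are set for the T47D library where they weigh most. SERPINB9, an intracellular inhibitor of granzyme B, was at 90.0 and 97.3 cpm in MDA-MB-231 and 0, 0.0607 and 0 cpm in T47D, where the single count gives a ratio of 4491 (counting interval 805 to 177455). The wide gap between the lines in these genes follows from the rule that chose them. Near-absent in T47D with 1 to 3 counts in all were also PDE7B, a cAMP phosphodiesterase, at 88.1 cpm on average in MDA-MB-231, TOX2, an HMG-box factor, at 81.1 cpm, NHS, an actin regulator, at 83.3 cpm, and SLIT2, a guidance ligand, at 70.2 cpm. LPIN2, a phosphatidate phosphatase, was at 146 cpm and shares part of its span with LOC727896, which had up to 298 counts in a library. The most abundant gene of this set was CDH11, a cadherin of mesenchymal cells, at 666 and 682 cpm in MDA-MB-231 and 0.476, 0.486 and 0.419 cpm in T47D (log2 difference 10.49, standard error 0.136, Benjamini-Hochberg adjusted p = 1.17e-13, edgeR). PTPRM, a receptor phosphatase, had a log2 difference of 10.36 (standard error 0.166). AKR1B1, an aldose reductase, had a log2 difference of 10.28 (standard error 0.167).

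On the T47D side, DSCAM-AS1, a long noncoding RNA of estrogen receptor-positive tumours (chromosome 21, 41755010 to 41757285), was at 109, 94.1 and 76.3 cpm in T47D and had 1 count in MDA-MB-231, a ratio of 2918 (counting interval 523 to 115266). It overlaps DSCAM, which had up to 216 counts in a library, and the strand option of the counting is not given in the sources used here. DEGS2, a sphingolipid hydroxylase, was at 116, 123 and 119 cpm in T47D, against 2 counts in MDA-MB-231. TRPV6, an epithelial calcium channel, was at 113, 103 and 114 cpm in T47D, also against 2 counts. KRT23, a type I keratin, and TMPRSS13, a membrane serine protease, again had 2 counts in MDA-MB-231, and their T47D means were 102 and 72 cpm. APOD, a lipocalin, and PRAME, a tumour antigen, had 3 counts there, with T47D means of 111 and 89.2 cpm. These genes were thus close to the limit of detection in MDA-MB-231. PIP, a secreted protein of apocrine glands, was at 0.328 and 0.551 cpm in MDA-MB-231 and 326, 279 and 536 cpm in T47D (log2 difference -9.72, standard error 0.414, Benjamini-Hochberg adjusted p = 4.03e-10, edgeR). Its T47D libraries were far apart, with replicate 3 the highest. ABCC11, a transporter of apocrine secretion, had the same order at 252, 201 and 370.3 cpm in T47D, and its log2 difference was -9.47 (standard error 0.381). RAB25, a GTPase of epithelial recycling endosomes, is the last of the set and is described with the junction genes. The genes named further on were the largest calls of each list or any member of the receptor, laminin, protease and keratin lists, and the others, among them defining members that were not called, were chosen after their values were seen.

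**Figure D2:**
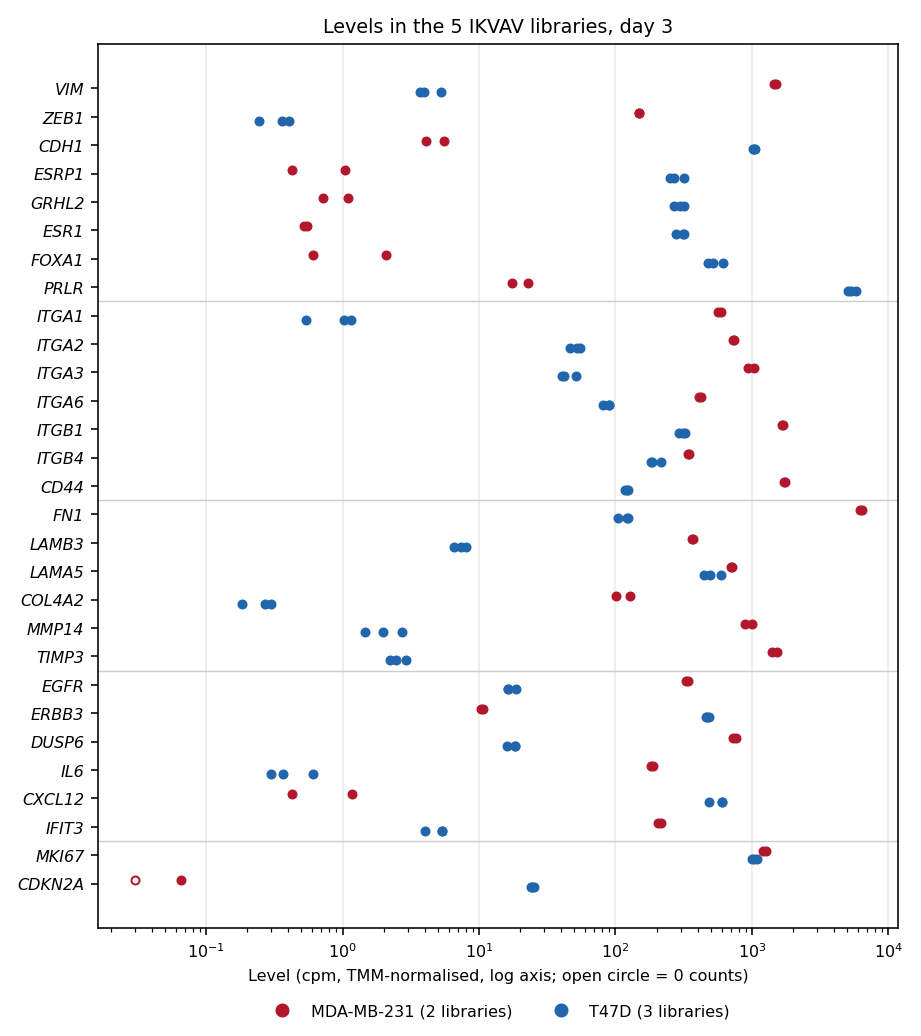
Level of 29 genes in each of the 5 IKVAV libraries, in cpm on a log axis, with a circle per library (red for the 2 MDA-MB-231 libraries, blue for the 3 T47D libraries, open for 0 counts) and grey lines between blocks of related genes. Replicates of a line lie close together, and the lines are far apart for most genes shown but close for LAMA5, ITGB4 and MKI67.

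Genes of epithelial junctions and polarity were lower in MDA-MB-231. Of 37 members tested, 29 were called lower and 1 higher, with a median log2 difference of -2.40, where 22.0% of all genes were called lower. CDH1, which encodes E-cadherin (chromosome 16, 68771195 to 68869444), was at 5.57 and 4.1 cpm in MDA-MB-231 and 1012, 1044 and 1057 cpm in T47D (log2 difference -7.75, standard error 0.145, Benjamini-Hochberg adjusted p = 4.85e-13, edgeR). Both MDA-MB-231 libraries were far below the T47D range. MARVELD3, of the tight junction, was at 0.197 and 0.122 cpm in MDA-MB-231 and 44.9, 45.4 and 47.9 cpm in T47D. RAB25 was at 0.262 and 0.0612 cpm in MDA-MB-231 and 123, 126 and 125 cpm in T47D, a log2 difference of -9.55 (standard error 0.235). PRSS8, a membrane-anchored protease of epithelia, had a log2 difference of -7.10 (standard error 0.266). The claudins, which seal the tight junction, did not share one size of difference. CLDN3 and CLDN1 had log2 differences of -6.23 and -4.88, CLDN7 and CLDN4 of -2.75 and -1.43, and CLDN12 was the member called higher, at a log2 difference of 1.06 that fell to 0.98, under the threshold, with upper-quartile normalization. DSP, the desmoplakin that ties desmosomes to keratin, was called lower, at 312 and 318 cpm in MDA-MB-231 and 1581, 1450.4 and 1551 cpm in T47D. JUP, plakoglobin, was also called lower, at 401 and 437 cpm in MDA-MB-231 and 1544, 1495 and 1316 cpm in T47D, so both transcripts were still present in MDA-MB-231. The tight junction scaffold TJP1 was not called, with a log2 difference of 0.52.

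As a description of their promoters, RefSeq promoters (GRCh38.p14, 250 bases before to 50 after the start) were searched on both strands for the E-box CAGGTG, the letters bound by ZEB and SNAIL factors. A promoter was listed for 19 of the 37 members tested, and 10 of these held the motif (52.6%), against 5625 of all 27305 promoters of this length (20.6%). TJP1, which was not called, was among the 10, so the motif was not confined to genes called lower. In the list of epithelial transcription and splicing factors 2 of 9 promoters held it. The promoters of RAB25 (chr1:156060910-156061209, plus strand, 2 matches) and CRB3 (chr19:6464021-6464320, plus strand, 5 matches) are shown 5′ to 3′ with the motif on either strand in capitals, since both genes were called and differ in the number of matches.
RAB25: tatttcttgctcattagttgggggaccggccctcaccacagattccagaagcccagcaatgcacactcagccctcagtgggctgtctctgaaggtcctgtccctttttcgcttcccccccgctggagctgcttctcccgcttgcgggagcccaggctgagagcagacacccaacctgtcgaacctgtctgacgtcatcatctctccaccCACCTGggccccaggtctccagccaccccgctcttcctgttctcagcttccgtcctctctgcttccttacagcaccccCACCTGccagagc
CRB3: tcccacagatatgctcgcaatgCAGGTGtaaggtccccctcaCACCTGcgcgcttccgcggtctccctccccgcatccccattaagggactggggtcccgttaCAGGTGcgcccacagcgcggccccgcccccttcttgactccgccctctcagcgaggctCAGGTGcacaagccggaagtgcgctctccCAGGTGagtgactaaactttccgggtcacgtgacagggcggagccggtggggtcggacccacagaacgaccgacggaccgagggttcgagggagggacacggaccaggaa
CRB3, a polarity protein of the apical membrane, was at 0.131 and 0.919 cpm in MDA-MB-231 and 19.6, 16.4 and 16.2 cpm in T47D, a log2 difference of -5.000 (standard error 0.389). RAB25, with fewer matches, had the larger difference, and a match to the letters is a description of the window only.

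The factors that maintain the epithelial state were lower as well, with 12 of 16 members called lower, 1 called higher and a median log2 difference of -3.94. GRHL2, a pioneer factor of epithelial enhancers, was at 0.721 and 1.1 cpm in MDA-MB-231 and 319.5, 298 and 267 cpm in T47D (log2 difference -8.32, standard error 0.184, Benjamini-Hochberg adjusted p = 1.47e-12, edgeR). ESRP1, which directs epithelial splicing, was at 1.05 and 0.429 cpm in MDA-MB-231 and 268, 252 and 319 cpm in T47D. ELF5, the alveolar factor downstream of prolactin, was at 0.459 and 0.122 cpm in MDA-MB-231 and 183, 224 and 209 cpm in T47D, a log2 difference of -9.45 (standard error 0.246). In each of these the MDA-MB-231 libraries were close to 0 and the T47D libraries far above them. OVOL2, a repressor of ZEB1, had 1 count in MDA-MB-231 against a mean of 6.97 cpm in T47D. The member called higher was KLF5, a zinc-finger factor, at 43.5 and 50.2 cpm in MDA-MB-231 and 12.2, 13.4 and 17.2 cpm in T47D.

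The factors that drive epithelial-mesenchymal transition were split by member. Of 11 tested, 6 were called higher and 3 lower in MDA-MB-231 (81.8% in all, against 45.4% of all genes), and the median log2 difference was 1.80. ZEB1, the E-box repressor of CDH1, was at 149 and 150.0 cpm in MDA-MB-231 and 0.408, 0.243 and 0.36 cpm in T47D (log2 difference 8.77, standard error 0.169, Benjamini-Hochberg adjusted p = 5.68e-13, edgeR). ZEB2 was at 24.7 and 18.7 cpm in MDA-MB-231 and 0.068, 0.0607 and 0.12 cpm in T47D, and SNAI2, which encodes SLUG, at 23.7 and 24.2 cpm in MDA-MB-231 and 0, 0.182 and 0.12 cpm in T47D. These repressors were near the limit of detection in every T47D library. HMGA2, a chromatin protein of embryonic tissue, had a log2 difference of 8.74 (standard error 0.225), and PRRX1, a homeobox factor, was at least 14.2-fold higher with no count in T47D. SNAI1, in contrast, was at 6.75 and 7.78 cpm in MDA-MB-231 and 4.15, 2.79 and 4.85 cpm in T47D and was not called, although without T47D replicate 3 its log2 difference of 1.07 was. TWIST1 and GSC had no count in MDA-MB-231 and means of 1.9 and 1.13 cpm in T47D, which makes them at least 9.66-fold and at least 5.76-fold higher in T47D, though low in both lines. TCF4, also called lower, had a log2 difference of -1.92, and its call was lost without T47D replicate 1 (log2 difference -1.32, edgeR adjusted p = 0.0709) and without MDA-MB-231 replicate 1 (log2 difference -2.14, edgeR adjusted p = 0.0642) or 2 (log2 difference -1.72, edgeR adjusted p = 0.115). FOXC1 was called higher, with a log2 difference of 1.80, and was expressed in both lines.

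All 24 mesenchymal markers tested were called, 19 higher and 5 lower, with a median log2 difference of 5.28. VIM, which encodes vimentin (chromosome 10, 17270258 to 17279592), was at 1500.1 and 1457 cpm in MDA-MB-231 and 5.3, 3.7 and 3.95 cpm in T47D (log2 difference 8.43, standard error 0.133, Benjamini-Hochberg adjusted p = 2.4e-13, edgeR). CAV1, the coat protein of caveolae, was at 344 and 339.7 cpm in MDA-MB-231 and 0.544, 0.607 and 0.479 cpm in T47D. TGFBI, a matrix protein induced by TGF-beta, was at 352 and 311 cpm in MDA-MB-231 and 1.02, 0.486 and 0.419 cpm in T47D. For all of these the T47D libraries held traces only. CD44, the hyaluronan receptor, was at 1763 and 1726 cpm in MDA-MB-231 and 121, 117 and 124 cpm in T47D, a log2 difference of 3.85 (standard error 0.0834), and so was well expressed in T47D too. NT5E, the ecto-nucleotidase CD73, had a log2 difference of 8.69 (standard error 0.154), and AXL, a receptor kinase of invasive cells, of 7.71 (standard error 0.115). The members called lower included TPM1, a tropomyosin, at 52.5 and 47.5 cpm in MDA-MB-231 and 206, 195 and 230.2 cpm in T47D. ACTA2, smooth muscle actin, was called lower with a log2 difference of -1.18 and overlaps FAS, which had up to 406 counts. SPARC, a matrix protein of mesenchymal cells, was low in both lines, at 0.197 and 0.429 cpm in MDA-MB-231 and 1.7, 2.25 and 1.08 cpm in T47D.

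Luminal and estrogen-response genes were lower in MDA-MB-231 in 25 of 30 members tested, with 2 higher and a median log2 difference of -4.13. ESR1, the estrogen receptor (chromosome 6, 152011631 to 152424408), was at 0.525 and 0.551 cpm in MDA-MB-231 and 318, 312 and 277 cpm in T47D (log2 difference -9.11, standard error 0.176, Benjamini-Hochberg adjusted p = 5.68e-13, edgeR). PGR, the progesterone receptor and an estrogen target, was at 3.67 and 2.33 cpm in MDA-MB-231 and 1445, 1290.0 and 2018 cpm in T47D. AGR3, a disulfide isomerase of luminal tumours, had a log2 difference of -8.95 (standard error 0.416). The receptors and this target were separated by more than 100-fold, with PGR highest in T47D replicate 3. FOXA1, the pioneer factor for the receptor, was at 2.1 and 0.612 cpm in MDA-MB-231 and 516, 475 and 611 cpm in T47D, and GATA3, the luminal master factor, at 20.2 and 21.5 cpm in MDA-MB-231 and 1206, 1032 and 903 cpm in T47D, so GATA3 was still detected in MDA-MB-231. CXCL12, a chemokine, was at 1.18 and 0.429 cpm in MDA-MB-231 and 607, 604 and 489 cpm in T47D, a log2 difference of -9.47 (standard error 0.239). TFF1, a classical estrogen target, was low even in T47D, at 0.262 and 0.184 cpm in MDA-MB-231 and 1.16, 0.789 and 2.1 cpm in T47D. The members called higher were IGFBP4, at 2219 and 2268 cpm in MDA-MB-231 and 563, 441 and 572 cpm in T47D, and BCL2, a survival factor, at 3.34 and 2.27 cpm in MDA-MB-231 and 0.476, 0.364 and 0.36 cpm in T47D.

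In the prolactin axis 4 of 11 members were called higher and 5 lower (81.8% in all, against 45.4% of all genes). PRLR, the prolactin receptor, was at 23 and 17.6 cpm in MDA-MB-231 and 5076, 5312 and 5751 cpm in T47D (log2 difference -8.05, standard error 0.156, Benjamini-Hochberg adjusted p = 5.73e-13, edgeR). GHR, the related growth hormone receptor, was at 0.459 and 0.429 cpm in MDA-MB-231 and 140.1, 154 and 159 cpm in T47D. Both receptors were far higher in T47D. The effector STAT5B was at 53.7 and 51.7 cpm in MDA-MB-231 and 55.1, 47.2 and 54.4 cpm in T47D and was not called. STAT5A and the feedback inhibitors SOCS1 and SOCS3 were called higher, with log2 differences of 2.12, 3.03 and 3.74.

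Of 55 keratin genes listed, 12 had enough counts to test, 5 were called higher and 6 lower. KRT18, the luminal type I keratin, was at 149 and 156 cpm in MDA-MB-231 and 508, 505 and 594 cpm in T47D, and KRT19 at 178 and 181 cpm in MDA-MB-231 and 1643, 1536 and 1647 cpm in T47D. KRT8, the partner of KRT18, had a log2 difference of -2.07, and the files place KRT8 and KRT18 on overlapping spans. These luminal keratins were lower but not lost in MDA-MB-231. KRT7, a simple epithelial keratin, was called higher with a log2 difference of 1.47. KRT81, a hair keratin, was at 50.2 and 48.3 cpm in MDA-MB-231 and 0.136, 0.303 and 0.0599 cpm in T47D, and as KRT81 and KRT86 are near copies their reads are uncertain. KRT5, KRT14 and KRT17, which define basal epithelium, showed no more than 2 counts in each of the 5 libraries, those of the basal line included.

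Integrins are the adhesion receptors through which cells read the matrix. Of 20 subunits tested, 10 were called higher and 3 lower in MDA-MB-231, with a median log2 difference of 1.48. Together these were 65% of the subunits, against 45.4% of all genes. ITGA1, the alpha 1 subunit of a collagen and laminin receptor, was at 567 and 590.0 cpm in MDA-MB-231 and 1.16, 1.03 and 0.539 cpm in T47D (log2 difference 9.32, standard error 0.159, Benjamini-Hochberg adjusted p = 3.46e-13, edgeR). Its span holds PELO, which had up to 1778 counts in a library. ITGA2, the alpha 2 subunit for collagen, was at 722 and 739 cpm in MDA-MB-231 and 51.9, 55.1 and 46.6 cpm in T47D. ITGA3, the alpha 3 subunit for laminin, was at 1029.7 and 935 cpm in MDA-MB-231 and 51, 40.4 and 41.9 cpm in T47D. All of these were well above the T47D range, with no overlap of libraries. ITGA6, the main alpha subunit for laminin, was at 426 and 413 cpm in MDA-MB-231 and 90.0, 81.4 and 90.0 cpm in T47D, a log2 difference of 2.27 (standard error 0.0866). ITGB1, the beta 1 subunit shared by these chains (chromosome 10, 33189246 to 33247293), was at 1699 and 1665 cpm in MDA-MB-231 and 295, 312 and 323 cpm in T47D (log2 difference 2.44, standard error 0.082, Benjamini-Hochberg adjusted p = 4.55e-11, edgeR). ITGB4, which pairs with alpha 6 in hemidesmosomes, was at 341 and 346 cpm in MDA-MB-231 and 216, 182 and 185 cpm in T47D and was not called. The transcripts of alpha 6 and beta 1, which can pair as a laminin receptor, were thus both higher in MDA-MB-231. That of beta 4 did not pass the threshold of 2-fold, and pairing of the proteins was not measured. ITGA5, the fibronectin receptor, had a log2 difference of 4.59, and ITGB3, the beta 3 subunit for vitronectin, of 6.89, whereas ITGAV and ITGB5 had log2 differences of 0.89 and 0.84 and were not called. The subunits called lower were ITGAL, ITGA2B and ITGAM, known from leukocytes and platelets. ITGAL was at 0.262 and 0.367 cpm in MDA-MB-231 and 29.4, 23.5 and 29.1 cpm in T47D.

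Per kilobase of gene length, a scale on which genes can be compared, ITGB1 was the most abundant of these subunits in MDA-MB-231, at 412 cpm per kb, followed by ITGA3 at 195, ITGA2 at 92.8, ITGA6 at 72.2 and ITGB4 at 56.6 cpm per kb. In T47D the order differed, with ITGB1 at 75.8, ITGB4 at 31.9, ITGA6 at 15, ITGA3 at 8.84 and ITGA2 at 6.51 cpm per kb. In the wider list of 14 laminin receptors, 5 were called higher, all of them integrins, and 1 lower, 42.9% in all and so no larger a share than the 45.4% of all genes. The member called lower was BCAM, the Lutheran receptor for the laminin alpha 5 chain, at 32.8 and 38.6 cpm in MDA-MB-231 and 211, 182 and 174 cpm in T47D. DAG1, dystroglycan, was at 654 and 643 cpm in MDA-MB-231 and 844, 750.2 and 700.3 cpm in T47D and was not called. The syndecans SDC1, SDC2 and SDC4 had log2 differences of -0.72, 0.61 and 0.21 and were not called either.

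Of 10 laminin chains tested, 7 were called higher and 0 lower in MDA-MB-231, with a median log2 difference of 2.59. LAMB3, a beta chain of the laminin of hemidesmosomes, was at 364 and 373 cpm in MDA-MB-231 and 8.02, 7.34 and 6.59 cpm in T47D (log2 difference 5.66, standard error 0.109, Benjamini-Hochberg adjusted p = 5.68e-13, edgeR). LAMA3, an alpha chain that assembles with it, had a log2 difference of 1.85. The chains LAMA5, LAMB1 and LAMB2 were not called, and LAMA5 was abundant in both lines, at 702 and 716 cpm in MDA-MB-231 and 594, 497 and 443 cpm in T47D. LAMA1, the chain from which the IKVAV sequence is taken, was at 3.08 and 3.55 cpm in MDA-MB-231 and had 1 count in T47D, so its own transcript was low in both lines. Among 15 other basement membrane genes, 11 were called higher and 1 lower. COL4A2, of the collagen IV pair, was at 128 and 100.3 cpm in MDA-MB-231 and 0.272, 0.182 and 0.3 cpm in T47D, and COL4A1 had a log2 difference of 8.52. COL17A1, a collagen of hemidesmosomes, had a log2 difference of 5.02, and AGRN, agrin, was not called, at 581 and 555 cpm in MDA-MB-231 and 551, 490.5 and 455 cpm in T47D.

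FN1, which encodes fibronectin (chromosome 2, 216225179 to 216300791), was at 6378 and 6246 cpm in MDA-MB-231 and 122, 104 and 124 cpm in T47D (log2 difference 5.76, standard error 0.104, Benjamini-Hochberg adjusted p = 3.81e-13, edgeR). It was expressed in both lines, with a wide gap between them. Of 29 collagen chains tested, 22 were called higher and 4 lower, with a median log2 difference of 3.13, or 2.81 with COL19A1, at 0 in T47D, set at its bound. Without the filter on low counts the median was 2.05. COL5A1, a fibrillar chain, was at 389 and 345 cpm in MDA-MB-231 and 0.748, 0.546 and 0.839 cpm in T47D. COL8A1 and COL13A1, short-chain and membrane collagens, had log2 differences of 9.21 (standard error 0.235) and 9.002 (standard error 0.199). COL1A1, the main chain of collagen I, was called lower, at 16.3 and 17.4 cpm in MDA-MB-231 and 62.3, 58.4 and 53 cpm in T47D, and COL5A2 had a log2 difference of -1.93. The fibrillar chains differed in direction.

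Matrix-cutting enzymes and their inhibitors were both higher in MDA-MB-231. Of 13 matrix metalloproteinases tested, 10 were called higher and 2 lower, with a median log2 difference of 3.62. With so few members the median moved with single libraries, to 2.71 without MDA-MB-231 replicate 2, 3.03 without T47D replicate 2 and 4.42 without T47D replicate 3, and it was 2.76 without the filter on low counts. MMP14, the membrane-bound enzyme that cuts collagen at the cell surface, was at 995 and 896 cpm in MDA-MB-231 and 2.72, 1.46 and 1.98 cpm in T47D (log2 difference 8.86, standard error 0.159, Benjamini-Hochberg adjusted p = 3.81e-13, edgeR). MMP1, the interstitial collagenase (chromosome 11, 102660641 to 102668966), was at 667 and 735 cpm in MDA-MB-231 and 6.66, 6.43 and 5.33 cpm in T47D, a log2 difference of 6.84 (standard error 0.118). The gelatinases stayed low even where higher, since MMP9 was at 6.03 and 3.67 cpm in MDA-MB-231 and MMP2 at 0.721 and 0.98 cpm in MDA-MB-231. The members called lower were MMP17 and MMP25, with log2 differences of -1.67 and -1.12. All 5 inhibitors were called higher. TIMP3, which binds to the matrix (chromosome 22, 33196802 to 33259028), was at 1400.1 and 1520.3 cpm in MDA-MB-231 and 2.45, 2.91 and 2.22 cpm in T47D (log2 difference 9.17, standard error 0.127, Benjamini-Hochberg adjusted p = 1.19e-13, edgeR). TIMP2, which also helps MMP14 activate MMP2, was at 1283 and 1236 cpm in MDA-MB-231 and 92.8, 87.4 and 93.3 cpm in T47D. TIMP1 was at 1065 and 1079 cpm in MDA-MB-231 and 20.3, 16 and 43.4 cpm in T47D, and T47D replicate 3 stood above the other T47D libraries. It overlaps SYN1, which had up to 207 counts. In the plasminogen system, a cascade of proteases at the cell surface, 7 of 9 members were called higher and 0 lower. PLAU, urokinase, was at 183 and 162 cpm in MDA-MB-231 and 0.883, 0.668 and 1.08 cpm in T47D. Its receptor PLAUR had a log2 difference of 6.63, so enzyme and receptor lay in the same direction. Of 14 ADAMTS proteases, 8 were called higher and 4 lower, with ADAMTS9 at a log2 difference of 8.61 and ADAMTS4 at -7.44.

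Of the 36 lists and families, 5 had no larger a share of members called than the 45.4% of all genes, namely the laminin receptors, S phase, G2/M phase, cell cycle inhibitors and cyclins, and cytosolic ribosomal proteins.

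**Figure D3:**
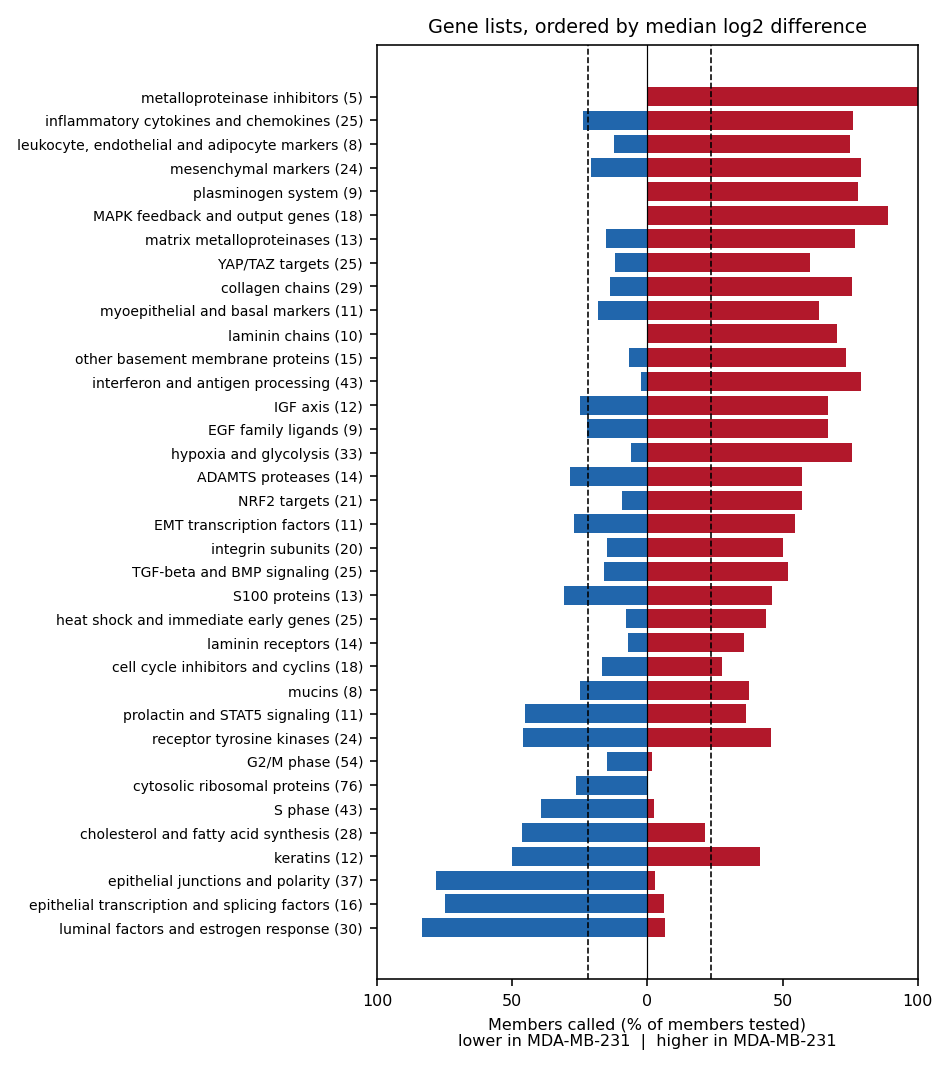
Share of the tested members of 36 gene lists and families that were called higher (red, to the right) or lower (blue, to the left) in MDA-MB-231 in the IKVAV matrix, as a percentage, with the number tested in parentheses and lists ordered by their median log2 difference. Dashed lines mark the 23.5% and 22.0% of all genes called in each direction, and the blue bars of the luminal, epithelial factor and junction lists at the bottom and the red bars of the lists at the top reach far beyond them.

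Growth factor receptors were divided between the lines. Of 24 receptor tyrosine kinases, 11 were called higher and 11 lower in MDA-MB-231 (91.7% in all, against 45.4% of all genes). MET, the receptor for hepatocyte growth factor, was at 403 and 381 cpm in MDA-MB-231 and 1.16, 1.52 and 0.779 cpm in T47D (log2 difference 8.40, standard error 0.156, Benjamini-Hochberg adjusted p = 4.74e-13, edgeR). EGFR was at 341 and 327 cpm in MDA-MB-231 and 18.8, 16.3 and 16.4 cpm in T47D, whereas ERBB4, of the same family, was at 0.721 and 0.49 cpm in MDA-MB-231 and 88.5, 87.6 and 79.3 cpm in T47D. ERBB2 was not called, with a log2 difference of -0.85, so the family did not move as one. FGFR2, a receptor for fibroblast growth factors, had a log2 difference of -7.20 (standard error 0.24), and the Wnt receptors ROR1 and ROR2 had log2 differences of 9.67 and -6.98, in opposite directions. Of 9 ligands of the EGF family, 6 were called higher and 2 lower. NRG1, a ligand of ERBB3 and ERBB4, was at 32.2 and 33.9 cpm in MDA-MB-231 and 0, 0.0607 and 0.18 cpm in T47D. HBEGF, a ligand of EGFR, was at 54.8 and 54.4 cpm in MDA-MB-231 and 2.51, 1.27 and 3.06 cpm in T47D. Transcripts induced by MAPK signalling were called higher in 16 of 18 members and lower in 0, with a median log2 difference of 3.80. FOSL1, an AP-1 subunit, was at 271 and 279.7 cpm in MDA-MB-231 and 1.36, 0.85 and 0.36 cpm in T47D, and EGR1, an immediate early factor, at 551 and 662 cpm in MDA-MB-231 and 4.35, 3.16 and 2.7 cpm in T47D. ETV5, an ETS factor, had a log2 difference of 7.41 (standard error 0.163). In these genes each MDA-MB-231 library lay above every T47D library.

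In the insulin-like growth factor axis, 8 of 12 genes were called higher and 3 lower, and the binding proteins were found at both ends. IGFBP5 was at 13.8 and 7.96 cpm in MDA-MB-231 and 5849, 5086 and 4889.8 cpm in T47D, and IGFBP2 at 0.393 and 0.429 cpm in MDA-MB-231 and 102, 94.7 and 81.8 cpm in T47D. IGFBP3 had a log2 difference of 6.24, and IGFBP7 was at 159 and 142 cpm in MDA-MB-231 and 0.951, 0.91 and 0.3 cpm in T47D, on a span that overlaps POLR2B. The receptor IGF1R was called lower with a log2 difference of -1.005, just past the threshold, and was not called without MDA-MB-231 replicate 1 (-0.96) or T47D replicate 1 (-0.95). The adaptor IRS1 was level, at 256 and 245 cpm in MDA-MB-231 and 271, 239 and 263 cpm in T47D. For TGF-beta and BMP signalling, 13 of 25 genes were called higher and 4 lower (68% in all, against 45.4% of all genes). TGFBR2, the ligand-binding receptor, was at 767 and 806 cpm in MDA-MB-231 and 1.16, 0.91 and 0.779 cpm in T47D (log2 difference 9.70, standard error 0.136, Benjamini-Hochberg adjusted p = 1.19e-13, edgeR). The ligands TGFB1 and TGFB2 had log2 differences of 6.87 and 6.33. INHBA, an activin chain, was at 4.92 and 7.23 cpm in MDA-MB-231 with no count in T47D, at least 29.8-fold higher. TGFB3 and the activin chain INHBB were called lower, with TGFB3 at 7.02 and 6.37 cpm in MDA-MB-231 and 117, 108 and 104 cpm in T47D. The effectors SMAD2 and SMAD4 had log2 differences of 0.01 and 0.31 and were not called. Of 25 targets of YAP and TAZ, coactivators that respond to cell shape, 15 were called higher and 3 lower, with a median log2 difference of 3.44. DLC1, a GTPase-activating protein, was at 103 and 98.5 cpm in MDA-MB-231 and 0.476, 0.364 and 0.419 cpm in T47D. CTGF, a matricellular protein, was at 139.6 and 149 cpm in MDA-MB-231 and 2.17, 0.971 and 3.24 cpm in T47D, and CYR61, its relative, at 612 and 639 cpm in MDA-MB-231 and 65.2, 54.8 and 72.3 cpm in T47D. TNS1, tensin, was called lower with a log2 difference of -2.02.

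Genes of the interferon response and of antigen processing were called higher in MDA-MB-231 in 34 of 43 members and lower in 1, and 8 were not called. The median log2 difference was 2.40. IFIT3, an antiviral RNA-binding protein, was at 206 and 214 cpm in MDA-MB-231 and 4.01, 5.4 and 5.39 cpm in T47D (log2 difference 5.41, standard error 0.13, Benjamini-Hochberg adjusted p = 2.57e-12, edgeR). IFI44, an interferon-induced gene, was at 43 and 42.6 cpm in MDA-MB-231 and 0.204, 0.303 and 0.719 cpm in T47D, and ISG15, a ubiquitin-like modifier, at 56.9 and 56.3 cpm in MDA-MB-231 and 2.04, 1.03 and 2.16 cpm in T47D. HLA-DRA, a class II chain of antigen-presenting cells, was at 699 and 702 cpm in MDA-MB-231 and 5.16, 8.01 and 4.97 cpm in T47D, and its activator CIITA had a log2 difference of 5.46 (standard error 0.178). Reads of HLA genes can be shared between copies, so their levels are uncertain. The list was uneven. BST2, tetherin, was at 134 and 125 cpm in MDA-MB-231 and 109, 103 and 94.3 cpm in T47D and was not called. OAS3, a sensor of double-stranded RNA, was the member called lower, at 51.1 and 58.4 cpm in MDA-MB-231 and 179, 152 and 196 cpm in T47D.

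Promoters of this list were searched on both strands for the core of the interferon-stimulated response element, the letters GAAA repeated after any 2 bases. A promoter was listed for 30 of 43 members tested, 20 of them with the motif (66.7%), against 996 of all 27305 promoters (3.65%). The promoters of IFIT3 (chr10:89327747-89328046 of GRCh38.p14, plus strand) and ISG15 (chr1:1013247-1013546, plus strand) each hold 2 matches, which overlap in ISG15. They are shown 5′ to 3′, as 2 members with a large difference, with the motif on either strand in capitals.
IFIT3: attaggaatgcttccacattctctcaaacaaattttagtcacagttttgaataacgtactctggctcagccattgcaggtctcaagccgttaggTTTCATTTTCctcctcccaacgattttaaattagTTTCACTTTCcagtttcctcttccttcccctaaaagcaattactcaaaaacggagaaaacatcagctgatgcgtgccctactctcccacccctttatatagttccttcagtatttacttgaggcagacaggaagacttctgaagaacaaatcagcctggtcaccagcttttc
ISG15: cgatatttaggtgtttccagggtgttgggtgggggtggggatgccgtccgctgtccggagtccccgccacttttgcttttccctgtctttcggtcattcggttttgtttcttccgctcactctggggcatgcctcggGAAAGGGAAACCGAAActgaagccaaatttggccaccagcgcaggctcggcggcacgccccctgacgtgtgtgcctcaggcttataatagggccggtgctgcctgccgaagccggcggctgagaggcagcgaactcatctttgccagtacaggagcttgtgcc
The motif was also in the promoters of BST2, which was not called, and of OAS3, which was lower, so members of both directions held it. The AP-1 site TGANTCA was searched in the same way and was in 0 of 4 listed promoters of matrix metalloproteinases, 0 of 10 of MAPK output genes and 3 of 17 of cytokines, against 7.76% of all promoters.

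All 25 inflammatory cytokine genes tested were called, 19 higher and 6 lower, with a median log2 difference of 5.66. IL8, the neutrophil chemokine CXCL8, was at 256 and 274 cpm in MDA-MB-231 and 0.68, 0.607 and 0.24 cpm in T47D, and IL6 at 182 and 189 cpm in MDA-MB-231 and 0.612, 0.364 and 0.3 cpm in T47D (log2 difference 8.77, standard error 0.172, Benjamini-Hochberg adjusted p = 6.19e-13, edgeR). CXCL11, a T cell chemokine, was at 54.4 and 50.8 cpm in MDA-MB-231 with 2 counts in T47D. The members called lower included, beside CXCL12, the chemokine CXCL16, at 14.1 and 11.1 cpm in MDA-MB-231 and 74.1, 72.8 and 69.1 cpm in T47D. Markers of leukocytes, endothelium and adipocytes were read in the same libraries as a check. PTPRC, CD3D, CD3E, MS4A1, VWF and CDH5, which define leukocytes and endothelium, showed no more than 3 counts in a library. Of 19 such markers 8 could be tested, 6 were called higher and 1 lower. CD68, a lysosomal protein, was at 259 and 250.0 cpm in MDA-MB-231 and 2.51, 2.25 and 3.3 cpm in T47D. PECAM1, an adhesion molecule of endothelium, was at 14.8 and 14.5 cpm in MDA-MB-231 with no count in T47D, at least 71.8-fold higher, and KDR, a VEGF receptor, at 9.25 and 9.74 cpm in MDA-MB-231 and 0.068, 0.121 and 0.0599 cpm in T47D. Summed over the 8 markers tested, the level was 302 and 295 cpm in MDA-MB-231 and 3.94, 4.67 and 4.79 cpm in T47D. In MDA-MB-231 most of it was CD68. The labels call both lines epithelial. T47D expressed each luminal marker checked (ESR1, PGR, GATA3, FOXA1, KRT8, KRT18, KRT19, CDH1 and EPCAM), while MDA-MB-231 kept the keratins and was low in the rest, with EPCAM at 8.98 and 8.63 cpm in MDA-MB-231 and 181, 179.8 and 210.0 cpm in T47D.

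Of 33 genes of hypoxia and glycolysis tested, 25 were called higher and 2 lower in MDA-MB-231, with a median log2 difference of 2.00. LDHB, a lactate dehydrogenase subunit, was at 399 and 409.6 cpm in MDA-MB-231 and 0.544, 1.34 and 0.539 cpm in T47D (log2 difference 8.94, standard error 0.189, Benjamini-Hochberg adjusted p = 1.08e-12, edgeR). LDHA was also higher in MDA-MB-231 but abundant in both lines, at 2282 and 2286 cpm in MDA-MB-231 and 343, 294 and 392 cpm in T47D. VEGFA, the angiogenic growth factor, was at 735 and 808 cpm in MDA-MB-231 and 36, 33.6 and 31.5 cpm in T47D. SLC2A3, a glucose transporter, had a log2 difference of 8.94 (standard error 0.235), and SLC16A1, a lactate transporter, was called lower with a log2 difference of -2.11. GAPDH, often taken as a reference gene, was at 1318 and 1353 cpm in MDA-MB-231 and 539.6, 513 and 512 cpm in T47D (log2 difference 1.36, standard error 0.0787, Benjamini-Hochberg adjusted p = 7.91e-09, edgeR), a difference above the threshold of 2-fold. In cholesterol and fatty acid synthesis 13 of 28 members were called lower and 6 higher (67.9% in all, against 45.4% of all genes). SQLE, squalene epoxidase, was at 22.3 and 21.9 cpm in MDA-MB-231 and 130.1, 109 and 164 cpm in T47D, a log2 difference of -2.60 (standard error 0.165). Of 21 NRF2 targets, 12 were called higher and 2 lower (66.7% in all, against 45.4% of all genes). GSTP1, a glutathione transferase, was at 106 and 114 cpm in MDA-MB-231 and 0.068, 0.182 and 0.18 cpm in T47D, and ME1, malic enzyme, had a log2 difference of 9.17 (standard error 0.251). NQO1, a quinone reductase and a standard target of NRF2, was called lower, at 272 and 292 cpm in MDA-MB-231 and 755, 1028 and 554 cpm in T47D. The members of each of these pathways did not all lie in one direction.

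Proliferation genes had negative medians in MDA-MB-231 relative to T47D, and most were not called. Of 43 S phase genes, 17 were called lower (39.5%, against 22.0% of all genes) and 1 higher, with a median log2 difference of -0.82. Summed over the S phase list the level was 2926 and 2888 cpm in MDA-MB-231 and 4385, 4713 and 5964 cpm in T47D. Of 54 G2/M genes, 8 were called lower (14.8%) and 1 higher, with a median log2 difference of -0.57. Their summed level was 8996 and 9085 cpm in MDA-MB-231 and 12888, 13238 and 14737 cpm in T47D, so in both lists the MDA-MB-231 libraries were below every T47D library. MKI67, the Ki-67 antigen of cycling cells (chromosome 10, 129894925 to 129924468), was at 1208 and 1263 cpm in MDA-MB-231 and 1083, 1009 and 1034 cpm in T47D, and its log2 difference of 0.25 (standard error 0.0805) was not called. TOP2A, the topoisomerase of mitosis, was at 588 and 581 cpm in MDA-MB-231 and 743, 802 and 780.0 cpm in T47D and was not called either. MCM4, a helicase subunit of S phase, was called lower, at 170.2 and 164 cpm in MDA-MB-231 and 449, 474 and 634 cpm in T47D. HMMR, a spindle and hyaluronan-binding protein, was the lowest of the G2/M list, at 13.6 and 14.6 cpm in MDA-MB-231 and 159, 162 and 188 cpm in T47D. T47D replicate 3 was the highest library for MCM4, and without it the median log2 difference of the S phase list was -0.69 and that of the G2/M list -0.52. CDCA7, the S phase member called higher, was at 12.4 and 13.9 cpm in MDA-MB-231 with no count in T47D, at least 64.5-fold higher. Among 18 cell cycle inhibitors and cyclins, 5 were called higher and 3 lower (44.4% in all, no more than the 45.4% of all genes). CDKN2A and CDKN2B, which encode the inhibitors p16 and p15, had 1 count each in MDA-MB-231, against means of 24.7 and 10.8 cpm in T47D, ratios of 778 (counting interval 139 to 30763) and 341 (counting interval 60.9 to 13493) in favour of T47D. CDK6, the kinase that p16 inhibits, was higher in MDA-MB-231, at 174 and 178 cpm in MDA-MB-231 and 8.49, 9.35 and 6.05 cpm in T47D. CCND1, cyclin D1, was at 607 and 529 cpm in MDA-MB-231 and 300.4, 249 and 347 cpm in T47D and was not called, but it was without MDA-MB-231 replicate 2 (log2 difference 1.03) and without T47D replicate 3 (log2 difference 1.04).

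Of 76 cytosolic ribosomal protein genes, 20 were called lower (26.3%, close to the 22.0% of all genes) and 0 higher, with a median log2 difference of -0.66, and reads of these genes can fall on processed copies. Of 25 heat shock and immediate early genes, 11 were called higher and 2 lower (52% in all, close to the 45.4% of all genes). HSPB1, a small heat shock protein, was called lower, at 94.5 and 108 cpm in MDA-MB-231 and 665, 648 and 746 cpm in T47D. Replicate 3 of T47D stood apart in this group, since HSPA8, a constitutive chaperone, was at 3795, 4176 and 2079 cpm in T47D and FOS, an AP-1 subunit, at 59.7, 74 and 24 cpm in T47D. Some abundant genes were level between the lines, in that their 95% interval lay within a log2 difference of 0.5 on either side of 0. ACTG1, cytoplasmic actin, was at 2368 and 2323 cpm in MDA-MB-231 and 1929.6, 1721 and 2256 cpm in T47D, and HSP90AB1, a chaperone, at 1321 and 1348 cpm in MDA-MB-231 and 1404, 1398 and 1458 cpm in T47D. CALR, calreticulin, and P4HB, protein disulfide isomerase, had log2 differences of 0.29 and 0.30. Small differences remain within such an interval, since ACTG1, CALR and P4HB had adjusted p of 0.046, 0.0052 and 0.0054 (edgeR). The remaining lists were mixed. Of 8 mucins tested, 3 were called higher and 2 lower (62.5% in all, against 45.4% of all genes). MUC1, of the apical membrane, was at 198 and 235 cpm in MDA-MB-231 and 1623, 1399 and 1489.8 cpm in T47D. Of 13 S100 genes, 6 were called higher and 4 lower (76.9% in all, against 45.4% of all genes). S100A4, a marker of motile cells, had a log2 difference of 3.48 (standard error 0.0966), and S100A9, of calprotectin, had 1 count in MDA-MB-231 against a mean of 22 cpm in T47D. Of 11 myoepithelial and basal markers tested, 7 were called higher and 2 lower. NGFR, a receptor of basal cells, had a log2 difference of 4.45 (standard error 0.221), whereas CDH3, P-cadherin, was at 1.18 and 0.367 cpm in MDA-MB-231 and 99.2, 84.2 and 68.2 cpm in T47D, and TP63, the basal master factor, was not called, at 3.48 and 3.43 cpm in MDA-MB-231 and 3.4, 3.52 and 4.13 cpm in T47D.

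By position, chromosome 16 had the lowest median log2 difference over its genes, -0.72, and chromosomes 4 and 6 had the highest, 0.48 and 0.46. Of 657 genes tested on chromosome 16, 247 were called lower and 66 higher in MDA-MB-231, where 22.0% and 23.5% of all genes were. The genes tested were also taken in 485 runs of 30 neighbours along hg19. The lowest median log2 difference of a run was -3.36, from PCDHA3 to PCDHB15 on chromosome 5 (140180783 to 140627801), where 21 genes were called lower and 3 higher. This run is the cluster of protocadherins, cell recognition molecules, and those of the alpha group share exons, so that their counts are not independent. The next lowest run reached from CALCOCO1 to DNAJC14 on chromosome 12 (54104902 to 56223420), with a median log2 difference of -2.76, 21 genes lower and 1 higher. The cluster of HOXC genes, which set positional identity, lies within it. The highest medians were 2.18 and 1.63, for runs on chromosome 6 from ZNF193 to HLA-E and from EHMT2 to TAP2, which hold much of the major histocompatibility complex.

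Whether the cell line difference in IKVAV was the one found in GFOGER was tested as the interaction of line and peptide over 11 libraries, where a positive value means that MDA-MB-231 stood higher relative to T47D in IKVAV than in GFOGER. Of 15310 genes tested, 984 (6.43%) were called, 640 (4.18%) positive and 344 (2.25%) negative. In the same fit 7027 genes were called between the lines in IKVAV and 7176 in GFOGER, and 5944 were called in the same direction in both, which is 84.6% of the former and 82.8% of the latter. Of the 984 genes, 943 had moved more between the peptides in MDA-MB-231 than in T47D, on log2 mean cpm with a small constant added. That constant damps changes of genes near 0 cpm in a line, and the same share over all genes tested was not taken. VIM and CDH1 missed the fold threshold alone, with log2 interactions of -0.62 and 0.93 at edgeR adjusted p of 0.0132 and 0.000909. ESR1 and ITGB1 were not called either, at -0.60 and -0.10 with adjusted p of 0.308 and 0.607.

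Several genes of the matrix were called. FN1 was at means of 6229 cpm in IKVAV and 762 cpm in GFOGER in MDA-MB-231, and 116 and 113 cpm in T47D, and its interaction was 2.99 (standard error 0.113, Benjamini-Hochberg adjusted p = 9.53e-13, edgeR). MMP1 ran the other way, at means of 692 cpm in IKVAV and 3780.3 cpm in GFOGER in MDA-MB-231, and 6.13 and 5.86 cpm in T47D, with an interaction of -2.51 (standard error 0.173, Benjamini-Hochberg adjusted p = 9.37e-09, edgeR). TIMP3 was at means of 1441 cpm in IKVAV and 608 cpm in GFOGER in MDA-MB-231, and 2.52 and 2.54 cpm in T47D, and its interaction was 1.26 (standard error 0.204, Benjamini-Hochberg adjusted p = 0.000249, edgeR). For each of them the T47D means hardly moved between the gels and the MDA-MB-231 libraries of the gels did not overlap. Among the receptors, ITGA1 had an interaction of 2.05 and ITGA6 of -1.22, and the laminin chain LAMB3 had an interaction of -1.23. Of the 25 targets of YAP and TAZ, 11 were called, 10 of them negative, where 6.43% of all genes were called. CTGF was at means of 142 cpm in IKVAV and 372 cpm in GFOGER in MDA-MB-231, and 2.12 and 0.947 cpm in T47D, with an interaction of -2.55 (standard error 0.367, Benjamini-Hochberg adjusted p = 7.52e-05, edgeR). Of the 43 interferon and antigen genes, 7 were called, each of them positive, where 4.18% of all genes were called positive. HLA-DRA had an interaction of 1.55. MUC1 was at means of 214 cpm in IKVAV and 26.1 cpm in GFOGER in MDA-MB-231, and 1501 and 1637 cpm in T47D, with an interaction of 3.15 (standard error 0.139, Benjamini-Hochberg adjusted p = 9.35e-12, edgeR), so the gap between the lines was smaller in IKVAV.

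**Figure D4:**
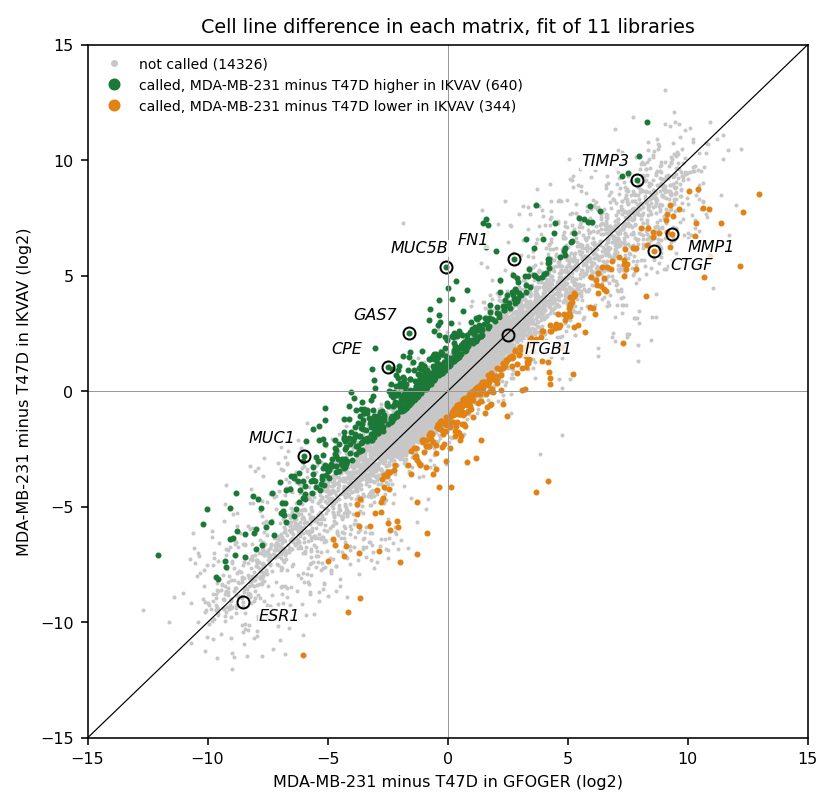
Log2 difference of MDA-MB-231 relative to T47D in the GFOGER matrix (x axis) and in the IKVAV matrix (y axis) for 15310 genes, with a point per gene and the diagonal of equal differences. The 640 genes called positive (green) lie above the diagonal and the 344 called negative (orange) below it, while ITGB1 and ESR1 lie near it.

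Among the largest interactions was that of MUC5B, a gel-forming mucin, at means of 97 cpm in IKVAV and 1.98 cpm in GFOGER in MDA-MB-231, and 2.29 and 2.05 cpm in T47D, with an interaction of 5.45 (standard error 0.401, Benjamini-Hochberg adjusted p = 2.16e-08, edgeR). Its level in MDA-MB-231 in GFOGER was thus close to that of T47D. ALDH3A1, an aldehyde dehydrogenase, was at means of 24.5 cpm in IKVAV and 1.62 cpm in GFOGER in MDA-MB-231, and 0.0825 and 0.118 cpm in T47D, and its interaction missed the threshold without T47D GFOGER replicate 2 (3.99, edgeR adjusted p = 0.0527). IQGAP2, a scaffold protein whose span overlaps F2RL2, was at means of 25.2 cpm in IKVAV and 1.56 cpm in GFOGER in MDA-MB-231, and 0.165 and 0.471 cpm in T47D. SPTSSB, a subunit of serine palmitoyltransferase, was at means of 1.89 cpm in IKVAV and 0.0587 cpm in GFOGER in MDA-MB-231, and 66.1 and 67.9 cpm in T47D. In these genes the MDA-MB-231 mean was higher in IKVAV than in GFOGER. At the negative end stood MMP3, stromelysin 1, at means of 2.14 cpm in IKVAV and 35.4 cpm in GFOGER in MDA-MB-231, and 0.0407 and 0 cpm in T47D, together with MT1E, LOC643650, PRKCDBP, SDPR and PCDHA1. In each of these a group was at 0, so that the fitted interaction depends on the count added in the fit and is no measure of size, and the same holds for ABCC12 and MGMT at the positive end. Each of these 8 calls also rested on single libraries, as that of MMP3 did on MDA-MB-231 IKVAV replicate 2 (without it -6.47, edgeR adjusted p = 0.0516) and T47D IKVAV replicate 2 (without it -4.05, edgeR adjusted p = 0.9999). In 13 of the 984 genes the lines were called in opposite directions in the gels, and those named here were chosen after their values were seen. SOX4, a developmental transcription factor, was at means of 301 cpm in IKVAV and 30.2 cpm in GFOGER in MDA-MB-231, and 143 and 121 cpm in T47D. CPE, a carboxypeptidase, was at means of 212 cpm in IKVAV and 18.7 cpm in GFOGER in MDA-MB-231, and 103 and 105 cpm in T47D, and GAS7, a membrane-shaping protein, at means of 19.3 cpm in IKVAV and 1.58 cpm in GFOGER in MDA-MB-231, and 3.37 and 4.86 cpm in T47D. In these genes the MDA-MB-231 mean was above the T47D mean in IKVAV and below it in GFOGER. In the IKVAV libraries alone the log2 difference of CPE was 1.06, and it was 0.99, under the threshold, without T47D replicate 2.

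**Figure D5:**
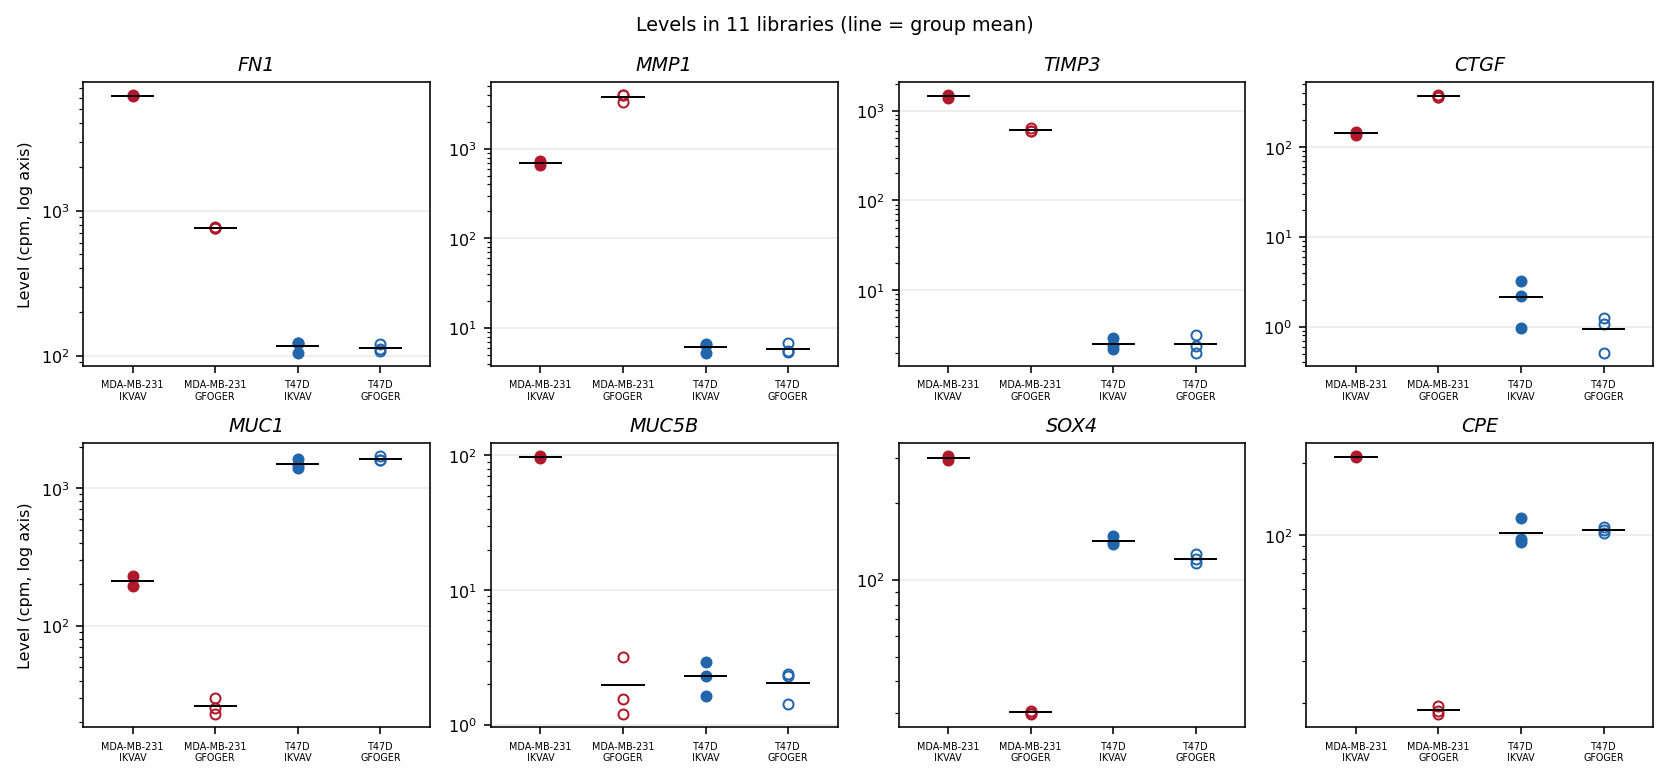
Level of 8 genes in the 11 libraries, in cpm on a log axis, with a circle per library (red for MDA-MB-231, blue for T47D, filled for IKVAV, open for GFOGER) and a line at each group mean. The MDA-MB-231 libraries of the 2 gels are apart in all 8 genes, while the T47D groups lie close together in most, and for SOX4 and CPE the MDA-MB-231 groups lie on either side of T47D.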

How the data were processed

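Poly(A) RNA of 5 IKVAV and 6 GFOGER libraries was sequenced by the authors as 51-bp single reads, stranded. Per the submitters' notes, reads were trimmed with Trim Galore 0.4.4, aligned to hg19 with TopHat2 2.1.0 and counted with HTSeq 0.6.1p1. The strand option of the counting is not given in the sources used here. The deposited table holds whole-number counts per gene, which were tested, and RPKM values made by the authors, which were used only to read the library total that they imply. That implied total was lower in MDA-MB-231 IKVAV replicate 1, T47D IKVAV replicate 3 and the T47D GFOGER libraries. These 2 sets of implied totals entered an alternative fit as a term. The counts on genes were 72.0% to 81.2% of the implied total in the higher set and 296% to 309% in the lower set. The implied total thus does not follow the depth of the counts.

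Of 24656 entries, 1288 that repeat a symbol were left out, 6 of them with a count, which left 23368 symbols and no mitochondrial gene. Counts were filtered with filterByExpr, TMM-normalized and tested with the quasi-likelihood test of edgeR 4.0.16 (R 4.3.3), separately for the IKVAV libraries and, for the interaction, over all 11. Standard errors are those of the fitted log2 fold change. Genes were called at a Benjamini-Hochberg adjusted p below 0.05 and a log2 fold change beyond 1 in either direction. The biological coefficient of variation was 0.106 in IKVAV. Where a line had no count, a bound was set at 3 counts in a library, and where it had 1 to 3, a ratio with an exact 95% counting interval was given. Bounds and intervals cover counting error only. Replicates of a line differed by more than sampling noise.

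Genes were named by a rule, with others added after their values were seen, as the text states. The rule took a set of reference genes, the 10 largest calls in each direction at 50 cpm or more, up to 4 members in each direction of each list, any member of the receptor, laminin, transition factor, keratin and protease lists, the 6 largest interactions in each direction, and the 6 most abundant level genes. Not every gene that the rule allows is named, and some results are not reported here. The members and lists were chosen with earlier results of these data known. Alternatives were DESeq2 1.42.0, the likelihood ratio test, limma 3.58.1 (voom), other normalizations and filters, other fold thresholds, a replicate block, the implied library totals and leaving out each library. On data simulated for the IKVAV comparison (14542 genes) the test recovered 187 of 194 changed genes with 1 false call. For the interaction (14889 genes) it recovered 179 of 195 with 1 false call. In the measured libraries 6755 genes were called in IKVAV and 984 for the interaction. Recovery and false calls with that many changed genes were not tested, so the rates above apply only to few changed genes. The rates were not split by the size of the difference. Recovery of genes close to the threshold of 2-fold was not tested separately. Promoters came from RefSeq (GRCh38.p14).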

Additional observations from a re-analysis of the deposited data

Results flagged for a closer look

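For 44 genes named here the cell line difference itself differed between the gels, as tested by the interaction of line and peptide over 11 libraries with edgeR. A positive log2 interaction means that MDA-MB-231 stood higher relative to T47D in IKVAV than in GFOGER. No cause of these differences was tested.

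Among the positive values, the log2 interactions of matrix and adhesion genes were 2.99 for FN1, 2.05 for ITGA1, 2.64 for ITGAL, 1.13 for SDC2, 1.13 for JUP, 1.72 for MMP17, 1.09 for TIMP1 and 1.26 for TIMP3. The mucins MUC5B and MUC1 were at 5.45 and 3.15, the factors SOX4, SNAI1 and TP63 at 3.08, 1.31 and 1.42, and IGFBP3, HLA-DRA, SERPINB9, CPE and GAS7 at 1.34, 1.55, 3.36, 3.54 and 4.12. ALDH3A1 was at 4.38, SPTSSB at 4.89 and IQGAP2 at 5.47. The positive fitted values of ABCC12 and MGMT were 4.98 and 4.48. That of SERPINB9 also rests on T47D levels near 0, since MDA-MB-231 was at means of 92.4 cpm in IKVAV and 58.3 cpm in GFOGER and T47D at 0.0203 and 0.177 cpm, with a single count in the T47D IKVAV libraries.

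Among the negative values, the proteases MMP1 and PLAU were at -2.51 and -1.79. The laminin chain LAMB3 was at -1.23, the laminin receptor subunit ITGA6 at -1.22, and COL17A1 and SPARC at -2.33 and -2.18. The YAP target genes CTGF and CYR61 were at -2.55 and -1.84, and the receptors AXL and NGFR at -1.45 and -2.07. BCL2, TCF4, IL6, NT5E and TPM1 were at -2.49, -2.24, -1.70, -1.37 and -1.20. The fitted values of MMP3, PCDHA1, LOC643650, MT1E, PRKCDBP and SDPR were -6.75, -5.39, -5.08, -4.53, -4.42 and -4.12. In these 6 genes and in ABCC12 and MGMT at least 1 group had no count, so that the fitted value depends on the count added in the fit.

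Some of these calls rested on single libraries, and the values that follow are log2 interactions with edgeR adjusted p. Without MDA-MB-231 IKVAV replicate 2, ABCC12 was at 0.55 (adjusted p = 0.9999) and MGMT at -0.20 (adjusted p = 0.9999). Both also missed the threshold without any one of the 6 GFOGER libraries, at adjusted p between 0.0573 and 0.0913, and MGMT without T47D IKVAV replicate 2 or 3 (adjusted p = 0.053 and 0.0559). MMP3 was at -4.05 (adjusted p = 0.9999) without T47D IKVAV replicate 2, and at -6.47 (adjusted p = 0.0516) without MDA-MB-231 IKVAV replicate 2, a library without which PCDHA1 had an adjusted p of 0.0526. LOC643650 was lost without MDA-MB-231 IKVAV replicate 2, T47D IKVAV replicate 1 (-3.81, adjusted p = 0.19) or any T47D GFOGER replicate, MT1E without T47D GFOGER replicate 1 or 2 or T47D IKVAV replicate 1 (-4.11, adjusted p = 0.0757), and SDPR without T47D IKVAV replicate 3 (-3.77, adjusted p = 0.0683) or any T47D GFOGER replicate. PRKCDBP was lost without either MDA-MB-231 IKVAV replicate, any T47D GFOGER replicate, or T47D IKVAV replicate 1 (-3.70, adjusted p = 0.126) or 3. ALDH3A1 was at 3.99 (adjusted p = 0.0527) without T47D GFOGER replicate 2.

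Further calls were lost in the same way. IL6 was at -1.32 without T47D GFOGER replicate 1 and -1.36 without T47D IKVAV replicate 1, and ITGAL at 2.14 without MDA-MB-231 GFOGER replicate 1 and 2.39 without MDA-MB-231 IKVAV replicate 2. SPARC was at -1.74 without MDA-MB-231 IKVAV replicate 1, -2.01 without T47D GFOGER replicate 1 and -1.88 without T47D IKVAV replicate 2. TCF4 was at -2.45 and -2.03 without MDA-MB-231 IKVAV replicates 1 and 2, -2.16 without T47D GFOGER replicate 2 and -1.63 without T47D IKVAV replicate 1. TIMP1 was at 1.10 and 1.09 without MDA-MB-231 IKVAV replicates 1 and 2, and 0.94 and 0.83 without T47D IKVAV replicates 1 and 2. TP63 was at 1.36 and 1.13 without MDA-MB-231 GFOGER replicates 2 and 3, 1.41 and 1.44 without MDA-MB-231 IKVAV replicates 1 and 2, and 1.27 without T47D GFOGER replicate 3.

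Other settings ended some of these calls as well. With a term for the 2 sets of implied library totals, the log2 interactions were 1.14 for SNAI1 (edgeR adjusted p = 0.0618), -1.14 for SPARC (adjusted p = 0.339), -1.58 for TCF4 (adjusted p = 0.251), 0.47 for TIMP1 (adjusted p = 0.269), 1.24 for TP63 (adjusted p = 0.107) and 4.61 for ABCC12 (adjusted p = 0.0698). TIMP1 was also lost with DESeq2 (adjusted p = 0.124). With the replicate block ABCC12, MGMT and PRKCDBP had adjusted p of 0.0604, 0.073 and 0.0549 (edgeR).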

How the results depend on the processing

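The number of genes called depended most on the fold threshold. On adjusted p alone, 11336 genes were called in IKVAV, 5663 higher and 5673 lower, and 3224 for the interaction, 1556 positive and 1668 negative. With the 2-fold threshold inside the test, 5460 were called in IKVAV. DESeq2 called 6617 and 1001, and a term for the 2 sets of implied library totals gave 6816 and 1295. The latter shared 762 of the 984 interaction calls, and the lower set of totals held all T47D GFOGER libraries and no MDA-MB-231 GFOGER library. Fits that each left out 1 library gave 6607 to 6796 genes in IKVAV, 3419 to 3517 higher and 3176 to 3333 lower, and 798 to 1140 for the interaction, 528 to 772 positive and 270 to 368 negative. Leaving MDA-MB-231 with 1 library assumes that it varies like T47D. An alternative chosen after seeing the data used only the 3 libraries of higher implied total, which are not the deeper ones by counts. It left MDA-MB-231 with 1 library, and the median log2 difference of the matrix metalloproteinases was then 4.39. The replicate block gave 6623 and 883 genes, and same-numbered samples of the 4 groups did not deviate together (correlations -0.185 to 0.042 over 15 pairs, against -0.103 to 0.226 over 30 pairs of unlike number). With so few libraries in a group, these correlations cannot exclude a shared origin of same-numbered samples, which the labels do not give. The 2 MDA-MB-231 IKVAV libraries deviate in mirror image by construction. The median over all genes tested moved between -0.098 and 0.006 with the setting. List medians moved more, from 2.05 to 3.54 for the collagen chains, 2.71 to 4.45 for the matrix metalloproteinases and 4.30 to 5.35 for the mesenchymal markers.

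Of the values for the 218 genes named in IKVAV, 4076 kept their direction and side of the threshold, 21 fell below it, 29 passed it and 14 changed sign, and of those for 44 interactions 679, 68, 0 and 1. The sign changes were in SMAD2 and STAT5B, close to 0 throughout. They were at -0.074 and -0.070 with upper-quartile normalization, -0.065 and -0.061 with library size alone, -0.021 and -0.017 without a filter, and -0.0061 and -0.0020 in a fit of all 4 conditions. SMAD2 was at -0.0080 with the term for implied library totals and -0.042 to 0.075 with single replicates left out, where STAT5B was at -0.060 to 0.049. The MGMT interaction was -0.20 without MDA-MB-231 IKVAV replicate 2 and reached 5.43 without replicate 1. The cause of these changes was not tested. Depth limits the genes near 0 in one line, whose ratios are bounds or have wide counting intervals.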
